A study of Homo sapiens with 16 samples.

Results

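The cytosolic ribosomal proteins are the protein components of the ribosome that translates nuclear-encoded mRNA. They were taken here as every probe whose gene symbol begins with RPL or RPS followed by a number, or is RPLP0, RPLP1, RPLP2 or RPSA, leaving out the RPS6 kinases and RPS4Y genes. The array carried 48 such probes for 33 genes, of 30968 probes for 15240 symbols in all. The large subunit was represented by 37 probes for 24 genes and the small subunit by 11 probes for 9 genes. No probe had the symbol RPLP0, RPLP1, RPLP2 or RPSA. Of the 33 genes, 26 encode core ribosomal proteins and 7 are paralogs or copies of such a gene (RPL3L, RPL7L1, RPL10L, RPL22L1, RPL39L, RPS26L1 and RPS27L). RPS26L1, now listed as a transcribed pseudogene, is counted with the paralogs here. A level in all 16 samples was available for 43 probes of 31 genes, 32 of the large and 11 of the small subunit, and these 43 were tested.

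The samples were HepG2 cells, an established line from a human liver tumour with many traits of hepatocytes, grown without serum. Elaidic acid (a trans monounsaturated fatty acid), oleic acid (its cis isomer) or stearic acid (the saturated acid of the same length) was given at 100 µM for 7 days, and control cells received no fatty acid. Each of the 4 groups had 4 biological replicates, all from this 1 cell line, and each value stands for the RNA extract of 1 replicate hybridised on 2 arrays in 1 colour. The numbers of the arrays fell into 2 ranges, called A and B here. Range A held elaidic acid replicates 2 and 4, all oleic acid replicates and all control replicates, and range B held elaidic acid replicates 1 and 3 and all stearic acid replicates. Stearic acid and array range therefore cannot be told apart in a comparison with oleic acid or control, while elaidic acid can be compared with oleic acid and control within range A and with stearic acid within range B.

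Ribosomal proteins are made in matched amounts, because each ribosome holds 1 copy of nearly every one, and their mRNAs are among the most abundant of a growing cell. In vertebrates these mRNAs begin with a C followed by an uninterrupted stretch of C and T, the terminal oligopyrimidine (TOP) motif, through which growth and nutrient signals that pass through the kinase mTOR and the binding protein LARP1 control their translation and stability. Several members also act outside the ribosome, such as RPL13A in the GAIT complex that silences inflammatory mRNAs.

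The annotated transcript starts show this shared feature, which the choice of members did not use. RefSeq start sequences (GRCh38.p14) were at hand for 25 of the 33 genes, which lie on 16 chromosomes. The motif, searched on the transcribed strand as a C at the start base followed by at least 4 bases that are each C or T, began at an annotated start of 19 of the 25 genes (76%), against 6.46% of the 10397 genes on the array with such a sequence and 4.07% of all 35116 starts. It was present in 18 of 21 core genes and in 1 of 4 paralogs, RPL22L1. The starts below belong to genes whose values are described later, each with 15 bases before the start and 15 from it, the start being base 16, and with the run of C and T that begins there in capitals.
RPS24 (chr10:78033848-78033877, plus strand): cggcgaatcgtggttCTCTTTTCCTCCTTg
RPL13A (chr19:49487593-49487622, plus strand): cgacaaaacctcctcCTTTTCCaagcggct
RPL22 (chr1:6199581-6199610, minus strand): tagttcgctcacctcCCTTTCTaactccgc
RPL36A (chrX:101390996-101391025, plus strand): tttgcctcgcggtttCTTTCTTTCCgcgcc
RPS25 (chr11:119018329-119018358, minus strand): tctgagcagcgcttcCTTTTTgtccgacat
RPS14 (chr5:150449725-150449754, minus strand): ccgccccctcccactCTCTCTTTCCggtgt
RPL22L1 (chr3:170870181-170870210, minus strand): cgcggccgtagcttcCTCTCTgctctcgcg
RPL4 (chr15:66504841-66504870, minus strand): tacagcgggagtggtaagcacttccttttc
RPL7L1 (chr6:42879601-42879630, plus strand): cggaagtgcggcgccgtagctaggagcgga
RPL10L (chr14:46651767-46651796, minus strand): caggcgtagttaagagagcgcattttgact
The core genes in this set open with 6 to 14 bases of C and T, except RPL4, whose annotated start lies a few bases before such a run. The starts of RPL7L1 and RPL10L hold no such run at the start base. With the motif allowed to begin within 10 bases of the start on either side, 21 of the 25 genes had it, against 42.3% of genes on the array, so that the wider search separates the members less.

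The samples carried the markers of the labelled line. Of 10 hepatocyte genes, 8 had a probe, with median intensities of 27700 for APOA1 and 5857 for AFP and none under 457. Markers of fibroblasts, endothelium and leukocytes were dimmer but not absent. Over their 10 probes the median intensities ran from 3.43 for COL3A1, the only one at or below 0 in any sample (5 of 16), to 231.8 for COL1A1 and 365.8 for CDH5, of which COL1A1, CDH5 and PDGFRB (136.7) exceeded the median over all probes in every sample. What these probes detect in HepG2 cells was not tested. Median intensity over all probes ran from 19.95 to 76.1, and control replicate 1 and oleic acid replicate 4 (20.7) were the dimmest samples. These 2 samples also had the lowest ribosomal protein values, so results that rest on them are given with and without them.

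Ribosomal protein mRNA signals were highest with stearic acid, intermediate with elaidic acid and lowest with oleic acid and in control. Each probe's quantile-normalised log2 value was set against its own mean over the 16 samples, and the median over the 43 probes was taken in each sample. That median was 0.55, -0.10, 0.43 and 0.04 in elaidic acid replicates 1 to 4, -0.23, -0.35, -0.39 and -1.03 in oleic acid replicates 1 to 4, 0.85, 0.63, 0.71 and 0.77 in stearic acid replicates 1 to 4, and -0.98, -0.19, -0.50 and -0.17 in control replicates 1 to 4. The 4 stearic acid samples lay above all others, and the 4 elaidic acid samples lay above every oleic acid and control sample. Elaidic acid replicates 2 and 4, the pair of range A, stood between the other pair and the controls. The median was 0.66 ± 0.15 over the 6 samples of range B and -0.39 ± 0.36 over the 10 samples of range A (SD). In samples of whole cultures, fewer cells with a high level and less RNA per cell cannot be told apart, and normalised values do not show a change in total RNA per cell.

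**Figure D1:**
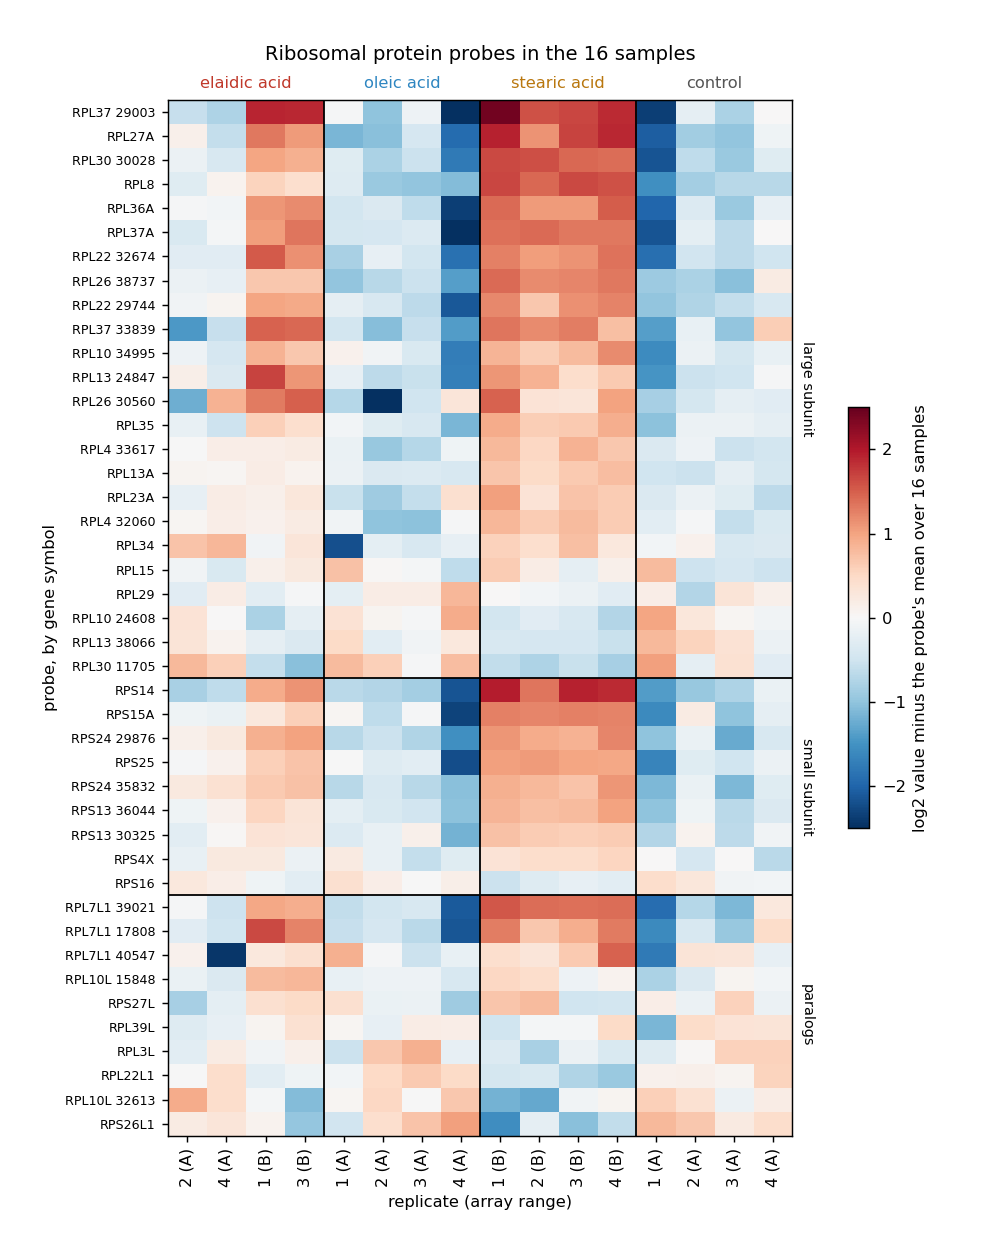
Colour gives the quantile-normalised log2 value of each of the 43 probes (rows) in each sample (columns, replicate number with array range) minus the probe's mean over the 16 samples. Most core proteins of both subunits are above their mean in the 4 stearic acid samples and in elaidic acid replicates 1 and 3 (range B), and control replicate 1 and oleic acid replicate 4 are the lowest columns.

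With elaidic acid, most ribosomal protein probes were higher than in control, but no single one passed the test. The median log2 change over the 43 probes was 0.62, with 31 higher and 12 lower, against a median of -0.10 over all 22939 tested probes and of 0.03 over the 13453 of them that carry a gene symbol, as every member does. Without the 2 dimmest samples the median over the 43 was 0.49, with 31 higher. None was called in limma (adjusted p under 0.05 after Benjamini-Hochberg correction), and 0.323% of all tested probes were. At an unadjusted p under 0.05, 17 were higher and 0 lower, against 8.1% and 6.21% of all tested probes. In 10 of the 43 the 4 elaidic acid values lay above all 4 control values, against 3.82% of all tested probes. With array weights, an alternative that gives noisy samples less weight, 22 members were called, and so were 2632 probes higher and 2024 lower over the whole array. The members' median was 0.84 in that fit, which did not set the array ranges apart. How the weights fell on the 2 ranges was not tested.

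RPS24 of the small subunit, a protein needed to process the precursor of small-subunit RNA and mutated in some patients with Diamond-Blackfan anaemia, was represented by 2 probes. The first (PH_hs_0035832) had log2 values of 12.83, 12.42, 12.90 and 12.56 with elaidic acid, 11.49, 11.77, 11.49 and 11.14 with oleic acid, 13.07, 12.99, 12.89 and 13.27 with stearic acid, and 11.06, 12.01, 11.05 and 11.88 in control. All 4 elaidic acid values, of both array ranges, exceeded the control and oleic acid values. The change against control was 1.18 ± 0.25 (log2, SE; adjusted p = 0.0672, limma, n = 4 each), and 0.99 ± 0.30 within range A (adjusted p = 0.413, limma). The second probe (PH_hs_0029876) had 10.996, 10.23, 11.11 and 10.34 with elaidic acid, 9.41, 9.57, 9.34 and 8.56 with oleic acid, 11.21, 11.03, 10.96 and 11.33 with stearic acid, and 9.09, 9.94, 8.84 and 9.69 in control. It was likewise above all controls in the 4 elaidic acid samples, with a change of 1.28 ± 0.30 (adjusted p = 0.0946, limma).

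RPL8 of the large subunit lies next to the site of peptide bond formation. Its log2 values were 13.64, 12.79, 13.51 and 13.18 with elaidic acid, 12.76, 12.17, 12.11 and 12.01 with oleic acid, 14.76, 14.53, 14.75 and 14.68 with stearic acid, and 11.57, 12.25, 12.40 and 12.40 in control. The 4 elaidic acid values lay between those of stearic acid and those of control and oleic acid, with no overlap on either side. The group means were 13.28 ± 0.38 (SD, n = 4) with elaidic acid and 12.16 ± 0.40 (SD, n = 4) in control, a change of 1.12 ± 0.26 (adjusted p = 0.084, limma).

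RPL13A varied little between replicates. It had log2 values of 11.99, 11.87, 11.89 and 11.85 with elaidic acid, 11.66, 11.46, 11.47 and 11.40 with oleic acid, 12.49, 12.29, 12.46 and 12.58 with stearic acid, and 11.31, 11.27, 11.58 and 11.37 in control. The 4 elaidic acid values formed a narrow band over both array ranges, above every control and below every stearic acid sample. Its change against control was 0.52 ± 0.17 over all samples (adjusted p = 0.211, limma) and 0.48 ± 0.20 within range A (adjusted p = 0.675, limma).

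RPL4 lines the tunnel through which the new protein leaves the ribosome, and 2 of its probes were tested. The probe PH_hs_0032060 had 12.11, 12.04, 12.21 and 12.17 with elaidic acid, 11.91, 10.999, 10.98 and 11.96 with oleic acid, 12.82, 12.64, 12.78 and 12.64 with stearic acid, and 11.73, 11.97, 11.41 and 11.62 in control. The elaidic acid samples again formed a narrow band above control and below stearic acid. On PH_hs_0033617 the change against control was 0.50 ± 0.22 and on PH_hs_0032060 it was 0.46 ± 0.24, without passing the test.

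**Figure D2:**
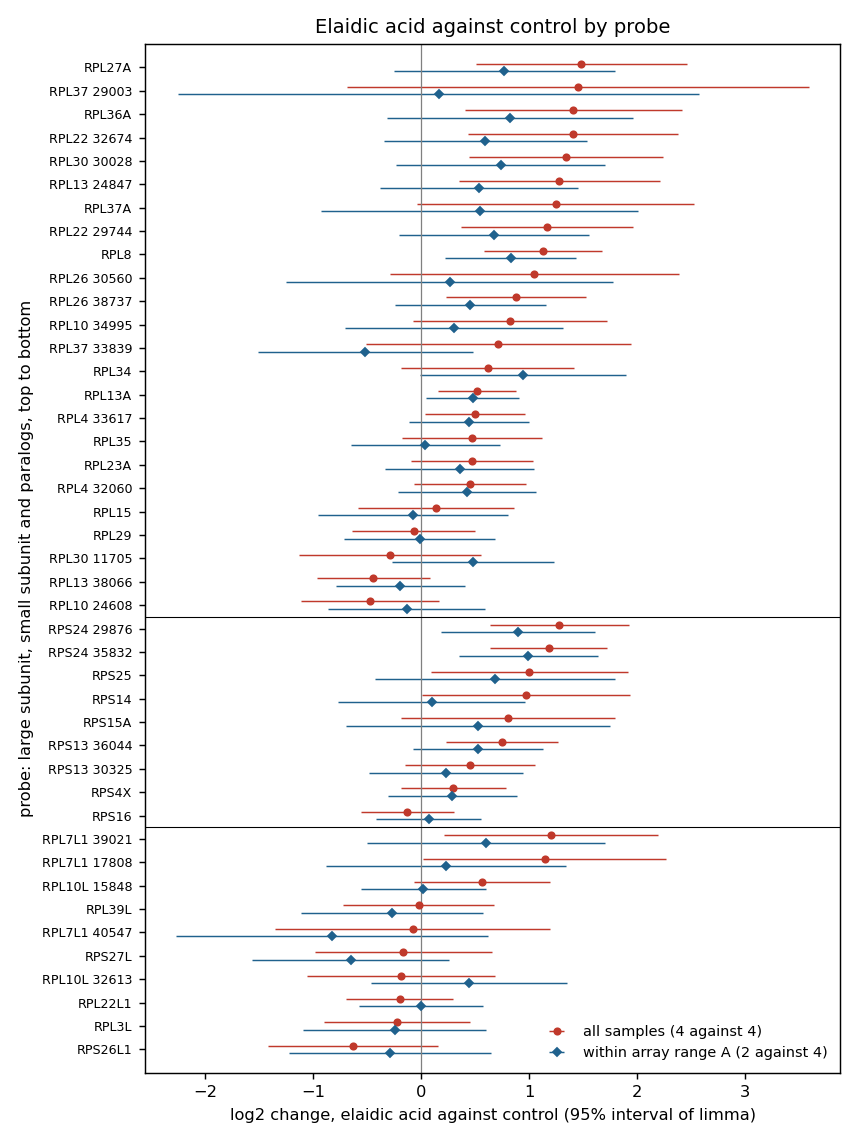
Points give the log2 change of each probe between elaidic acid and control with its 95% confidence interval in limma, over all samples (circles, 4 against 4) and within array range A (diamonds, 2 against 4). Over all samples 31 of 43 probes lie right of 0 and within range A 33 do, of the 10 paralog probes at the bottom 3 and 5 do, and no probe passed the adjusted threshold.

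Within array range A the median change was smaller, while about as many probes were higher. The median change of elaidic acid replicates 2 and 4 against the 4 controls was 0.36 over the 43 probes, with 33 higher and 10 lower, against 0.02 over all tested probes. None was called (0.0392% of all tested probes were), and 4 had an unadjusted p under 0.05, against 6.53% of all tested probes. In 11 of the 43, both elaidic acid samples of range A were above all 4 controls, against 7.17% of all tested probes. These were the pairs of probes of RPS24, RPL4 and RPL22 and 1 probe each of RPL8, RPL13A, RPL34, RPL36A and RPS25, all core proteins. RPS26L1, RPL7L1 and the other paralogs had no probe among them, and 1 paralog probe was below all controls, against 5.72% of all tested probes. Without control replicate 1 and oleic acid replicate 4 the median within range A was 0.25, with 29 higher.

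RPL22, a large-subunit protein that mice need for T-cell development but not for survival, shows how much the 2 ranges differed. Its probe PH_hs_0032674 had log2 values of 9.71, 7.90, 9.31 and 7.89 with elaidic acid, 7.37, 7.98, 7.71 and 6.32 with oleic acid, 9.43, 9.22, 9.29 and 9.53 with stearic acid, and 6.30, 7.69, 7.53 and 7.67 in control. The range A elaidic acid samples were just above the highest control, and the range B pair was level with stearic acid. The change against control on this probe was 1.40 ± 0.46 over all samples (adjusted p = 0.208, limma) with an interval of 0.43 to 2.38. Between the ranges within elaidic acid it differed by 1.62, and the other RPL22 probe, PH_hs_0029744, by 0.98. On PH_hs_0029744 the range A elaidic acid samples (7.87 and 8.02) exceeded every control and every oleic acid sample.

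With oleic acid the ribosomal protein values were near those of control. The median change over the 43 probes was -0.05, with 17 higher and 26 lower, and both groups were hybridised within range A. None was called in limma, 0% of all tested probes were, and none of the 43 had an unadjusted p under 0.05, against 2.62% of all tested probes. The probe of smallest p was RPL34, a large-subunit protein, with values of 4.14, 6.11, 5.96 and 6.15 with oleic acid and 6.28, 6.46, 5.95 and 5.99 in control. Oleic acid replicate 1 alone was low, and the groups overlapped, with a change of -0.58 and an interval of -1.38 to 0.22. For RPL4 (PH_hs_0032060) the change was -0.22 and for RPL29, a large-subunit protein that binds heparin, it was 0.27 with an interval of -0.30 to 0.84. The list's median ran from -0.22 without control replicate 1 to 0.13 without oleic acid replicate 4, the 2 dimmest samples, and was -0.035 without both.

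Elaidic and oleic acid differ only in the geometry of their double bond. The median log2 change of elaidic acid against oleic acid was 0.75 over the 43 probes, with 31 higher and 12 lower. None was called in limma (0.318% of all tested probes were), and 11 did not overlap with higher values, against 4.07% of all tested probes. At an unadjusted p under 0.05, 22 were higher and 0 lower, against 10.5% and 8.44% of all tested probes. The probes of smallest p were again those of RPS24, with 1.45 ± 0.30 (adjusted p = 0.0586, limma) and 1.21 ± 0.25 (adjusted p = 0.0594, limma), followed by RPL8 with 1.02 ± 0.26 (adjusted p = 0.117, limma). RPL26, a large-subunit protein that also binds the mRNA of p53, had 8.74, 7.92, 8.73 and 7.87 with elaidic acid and 7.07, 7.38, 7.52 and 6.68 with oleic acid on PH_hs_0038737. On this probe the groups did not overlap, and the range A pair exceeded the highest oleic acid sample. On the dim RPL26 probe PH_hs_0030560 the groups overlapped. It had 5.569, 3.058, 5.775 and 5.148 with elaidic acid and 3.565, 1.381, 3.783 and 4.58 with oleic acid. On the other side, 3 probes had the smallest p among those lower than with oleic acid, RPL10 (PH_hs_0024608) at -0.50, RPL22L1 at -0.38 and RPL30 (PH_hs_0011705) at -0.59. Within range A the median was 0.40 with 32 higher, 0 called (0.0218% of all tested probes), and 11 of the 43 above all oleic acid samples, against 6.29% of all tested probes. Without the 2 dimmest samples the median was 0.58 over both ranges, with 30 higher, and 0.20 within range A. With array weights 27 members were called higher and 3 lower than with oleic acid, along with 4300 and 4653 probes over the whole array. That fit likewise did not set the array ranges apart, and the members' median in it was 0.93. Of the probes, 9 were above all control and all oleic acid samples in both elaidic acid samples of range A, against 3.09% of all tested probes. These comparisons with control and with oleic acid share the elaidic acid samples.

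Stearic acid gave the largest differences, and these coincide with the array range. The median change against control was 1.17 over the 43 probes, with 33 higher and 10 lower, against -0.18 over all tested probes. In limma 26 rose and 3 fell, against 15% of all tested probes that rose and 14.8% that fell. Over the tested probes with a gene symbol the background leaned the other way, with a median of 0.11, 20.6% that rose and 11.2% that fell. Of the 26 probes that rose, 24 were core proteins and 2 were probes of RPL7L1. Without the 2 dimmest samples the median was 1.09, with 24 members called higher and 2 lower, against 2695 and 1780 probes over the whole array.

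RPL8 had the smallest p of the members, with a rise of 2.52 ± 0.26 (adjusted p = 0.000329, limma) and the sample values given above. RPL30, a large-subunit protein, had 10.88, 10.85, 10.65 and 10.62 with stearic acid and 7.07, 8.58, 8.30 and 8.92 in control on PH_hs_0030028. The lowest stearic acid sample was well above the highest control, and the rise was 2.53 ± 0.42 (adjusted p = 0.00159, limma). RPS14, the small-subunit protein whose reduced dose underlies the anaemia of a form of myelodysplastic syndrome, had 9.07, 8.44, 9.01 and 8.97 with stearic acid and 5.71, 6.16, 6.32 and 6.92 in control, a rise of 2.60 ± 0.45 (adjusted p = 0.00195, limma). RPL27A had 12.35, 11.55, 12.11 and 12.30 with stearic acid and 8.37, 9.56, 9.43 and 10.33 in control. On these probes the core proteins of both subunits were higher in each stearic acid sample than in any control. The dim RPL30 probe PH_hs_0011705 went the other way, at -0.92, without passing the test. It had 4.64, 4.47, 4.69 and 4.43 with stearic acid and 6.27, 5.03, 5.63 and 4.97 in control, with no overlap. RPL13A rose by 1.07 ± 0.17, RPL26 (PH_hs_0038737) by 1.91 ± 0.31 and the RPS24 probes by 1.55 ± 0.25 and 1.74 ± 0.30, all with adjusted p of 0.00191 or less in limma.

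Probes that fell with stearic acid after normalisation were RPS26L1, RPL22L1 and a dim probe of RPL13. Without normalisation 24 members were called higher and 0 lower, against 2853 and 246 probes over the whole array. RPS26L1, a symbol that RefSeq now gives as an older name of the transcribed pseudogene RPS26P11, had 4.29, 5.62, 4.80 and 5.24 with stearic acid and 6.66, 6.52, 6.07 and 6.29 in control, a change of -1.40 ± 0.37 (adjusted p = 0.0138, limma). RPL22L1, the paralog of RPL22, had 7.32, 7.37, 6.99 and 6.83 with stearic acid and 7.86, 7.88, 7.82 and 8.30 in control, a change of -0.84 ± 0.23 (adjusted p = 0.017, limma). Neither overlapped between the groups after normalisation, but both did in deposited intensity. There RPL22L1 ran from 164.1 to 192.3 with stearic acid and from 128.6 to 454 in control. RPS26L1 ran from 18.67 to 68.94 and from 47.44 to 125.7. On normalised values RPL22L1 thus fell where both probes of RPL22 rose, by 1.748 ± 0.375 and 2.07 ± 0.46.

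No member was called between stearic acid and control once array range entered the model as a block, a contrast that then runs through the elaidic acid samples. The median was 0.56 and 0 were called, as of all tested probes (0%), with 7 higher and 0 lower at an unadjusted p under 0.05, against 4.09% and 3.37% of all tested probes. RPL8 had the smallest p, with a change of 1.93 ± 0.40 and an interval of 1.07 to 2.79 (adjusted p = 0.301, limma).

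Elaidic acid gave lower ribosomal protein values than stearic acid. The median change was -0.55, with 11 higher and 32 lower, against 0.07 over all tested probes and -0.07 over those with a symbol. Only RPL8 was called, at -1.40 ± 0.26 (adjusted p = 0.0455, limma), while 0.397% of all tested probes were called. That call was kept without control replicate 1, oleic acid replicate 1 or 4 or elaidic acid replicate 1, and was lost without any other single sample. In 15 of the 43 the elaidic acid samples lay below every stearic acid sample, against 7.13% of all tested probes. RPS14 had a change of -1.63 ± 0.45 and RPL26 (PH_hs_0038737) of -1.03 ± 0.31, without passing the test. On the other side RPL22L1 was at 0.64 ± 0.23, RPS26L1 at 0.77 and RPS16, a small-subunit protein, at 0.34. Within range B, where 2 elaidic acid samples met 4 stearic acid samples, the median was -0.13, with 16 higher and 27 lower, and 0 were called (0.00436% of all tested probes). There 15 probes were below all stearic acid samples and 5 above, against 12.3% and 11.1% of all tested probes. RPL8 was at -1.11 ± 0.29 within range B (adjusted p = 0.363, limma), and RPL13A at -0.51 ± 0.20 (adjusted p = 0.704, limma).

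For 5 of the 43 probes the elaidic acid samples were above all controls within range A and below all stearic acid samples within range B, against 1.8% of all tested probes. They were RPL8, RPL13A, RPS25 and both tested probes of RPL4. This combination was looked for after the values had been seen. RPS25, which viral and cellular internal ribosome entry needs, had 14.04, 13.41, 14.16 and 13.54 with elaidic acid, 13.43, 13.12, 13.18 and 11.22 with oleic acid, 14.46, 14.50, 14.43 and 14.40 with stearic acid, and 11.79, 13.14, 12.94 and 13.28 in control. Its range A elaidic acid samples exceeded the highest control by a small margin and overlapped with oleic acid replicate 1.

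Oleic acid against stearic acid gave the widest gap, again along the array range. The median change was -1.26, and in limma 29 fell and 4 rose, against 18.4% of all tested probes that fell and 21% that rose. Without the 2 dimmest samples the median was -1.23, with 28 members called lower and 1 higher, against 3363 and 2712 probes over the whole array. The log2 change was -2.42 ± 0.26 for RPL8, -2.88 ± 0.45 for RPS14 and -2.79 ± 0.46 for RPL27A. In the main fit the 4 probes that rose were RPL22L1 (1.02), RPS26L1 (1.29), RPL10 PH_hs_0024608 (0.80) and RPL30 PH_hs_0011705 (1.22). Without normalisation 0 members rose and 29 fell, against 301 and 4824 probes over the whole array. With array range as a block the median was -0.60 and 0 were called (0% of all tested probes), with 0 higher and 9 lower at an unadjusted p under 0.05, against 3.1% and 3.5% of all tested probes.

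The array ranges could be compared within elaidic acid, where replicates 1 and 3 (range B) met replicates 2 and 4 (range A) after the same treatment. The median difference of range B against range A was 0.59 over the 43 probes, with 34 higher and 9 lower, against -0.13 over all tested probes and 0.06 over those with a symbol. In limma 1 probe was called higher and 1 lower, against 2.36% and 1.7% of all tested probes. At an unadjusted p under 0.05, 10 were higher and 2 lower, against 12.6% and 15.4% of all tested probes. The number called was 0 without any 1 of the elaidic acid samples and 9 without oleic acid replicate 4, where 1012 probes were called higher and 682 lower over the array. RPL37 of the large subunit had 7.44 and 7.39 in range B and 4.52 and 5.39 in range A on PH_hs_0033839, a difference of 2.46 ± 0.54 (adjusted p = 0.0282, limma). Its other probe, PH_hs_0029003, had 9.10 and 9.09 in range B and 6.62 and 6.42 in range A, with a difference of 2.58. RPL30 was called lower on its dim probe PH_hs_0011705, with 4.65 and 4.20 in range B and 6.06 and 5.85 in range A, a difference of -1.53 ± 0.41 (adjusted p = 0.0488, limma). RPS14 missed the threshold at 1.746 ± 0.468 (adjusted p = 0.0507, limma), as did RPL7L1 (PH_hs_0017808) at 1.83 ± 0.60 (adjusted p = 0.0864, limma). RPL4 and RPL13A, in contrast, differed by 0.06 to 0.11 between the ranges.

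Across the 43 probes this range difference within elaidic acid ran parallel to the stearic acid change against control, although the 2 sets of samples are disjoint. Pearson's r was 0.78 and Spearman's rho 0.78, and 40 of 43 probes had the same sign. Over all 22939 tested probes r was 0.72 and 18228 had the same sign, so the likeness was not limited to ribosomal proteins. The points are probes that share the same arrays, and no test was made. RPL37 (PH_hs_0033839) had a change with stearic acid of 1.63 and a larger range difference of 2.46, whereas RPL8 had 2.52 and 0.59.

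**Figure D3:**
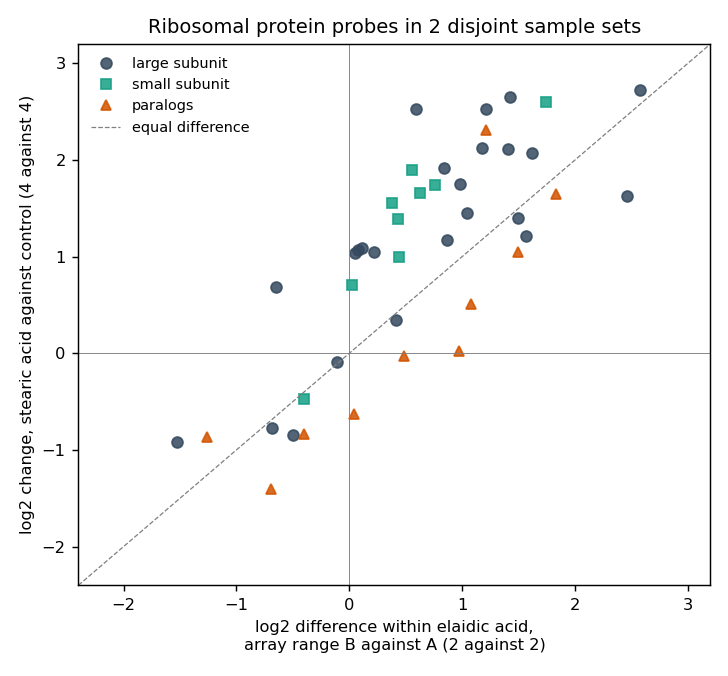
Each point is 1 of the 43 probes, with its log2 difference between array ranges within elaidic acid on the horizontal axis and its log2 change between stearic acid and control on the vertical axis, and the dashed line marks equal differences. The points rise together (Pearson's r 0.78), most core proteins lie above the line, and most paralogs lie below it.

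The large and small subunits followed each other across the samples. The median of the 32 large-subunit probes was 0.21 ± 0.34 with elaidic acid, -0.37 ± 0.13 with oleic acid, 0.74 ± 0.13 with stearic acid and -0.44 ± 0.35 in control, and that of the 11 small-subunit probes was 0.22 ± 0.27 with elaidic acid, -0.47 ± 0.38 with oleic acid, 0.83 ± 0.10 with stearic acid and -0.50 ± 0.41 in control (SD over 4 samples, each probe relative to its own mean). The difference between subunits within a sample, large minus small, was -0.01 ± 0.14 with elaidic acid, 0.09 ± 0.29 with oleic acid, -0.09 ± 0.14 with stearic acid and 0.05 ± 0.13 in control. Oleic acid replicate 4 stood apart at 0.51, and all other samples lay between -0.23 and 0.23. Over the probes, the median change of elaidic acid against control was 0.59 for the large and 0.75 for the small subunit, and 0.39 and 0.29 within range A. For stearic acid against control the medians were 1.13 for the large and 1.39 for the small subunit, with 18 of 32 and 8 of 11 probes rising. In that comparison 15% of all tested probes rose, and 20.6% of those with a symbol. Between array ranges within elaidic acid the medians were 0.85 for the large and 0.44 for the small subunit. The order of the subunits thus differed between comparisons, and the difference between them was not tested.

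**Figure D4:**
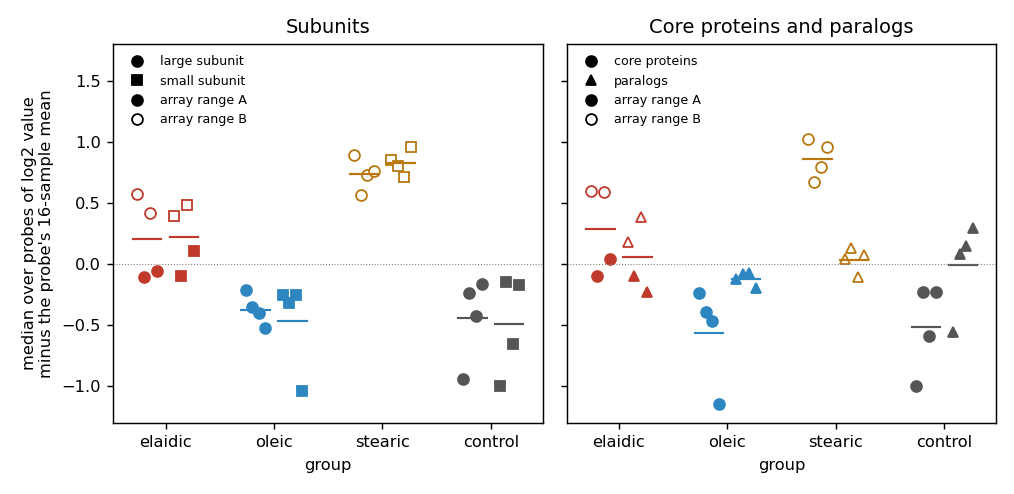
Each marker is 1 sample, giving the median over probes of the log2 value minus the probe's 16-sample mean, for the 2 subunits (left) and for core proteins and paralogs (right), with group means as lines and array range B as open markers. With stearic acid both subunits lie between 0.57 and 0.96, the lowest large-subunit value is -0.94 in control replicate 1, the lowest small-subunit value is -1.04 in oleic acid replicate 4, and the paralogs stay within -0.56 and 0.39 in every group.

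The paralogs had lower medians than the core proteins for elaidic and stearic acid against control. This was not so between array ranges or for oleic acid against control (0.02 for the paralogs and -0.07 for the core). The difference between the lists was not tested. Over the 33 core probes the median change of elaidic acid against control was 0.81 with 28 higher, and 0.46 within range A with 28 higher. Over the 10 paralog probes it was -0.12 with 3 higher, and -0.12 within range A with 5 higher. For stearic acid against control the medians were 1.40 for the core and 0.00 for the paralogs, where 2 rose and 2 fell, against 15% and 14.8% of all tested probes. Between array ranges within elaidic acid the medians were 0.59 for the core, with 27 higher, and 0.73 for the paralogs, with 7 higher. The paralogs differed among themselves. RPL7L1, a homologue of RPL7, rose with stearic acid on PH_hs_0039021 by 2.31 ± 0.47 (adjusted p = 0.00398, limma), with 8.74, 8.58, 8.56 and 8.58 with stearic acid and 5.28, 6.47, 6.05 and 7.44 in control. RPL3L, which replaces RPL3 in striated muscle, was at -0.63 and RPL39L, enriched in testis, at -0.03. RPS27L, which p53 induces, was at 0.02 with an interval of -0.80 to 0.84. RPL10L, an intronless copy of RPL10 that serves male germ cells, was at 0.51 on its brighter and -0.87 on its dimmer probe. None of these 4 genes passed the test, and their levels with elaidic acid overlapped with control.

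Probes of a single gene did not always go the same way. Of the 11 genes with over 1 tested probe, 4 had a correlation above 0.9 between the brightest and the dimmest probe over the 16 samples (RPL4, RPS24, RPL22 and RPS13), against 4.52% of the 1304 genes on the array with over 1 tested probe. Another 4 had a correlation under -0.7 (RPL10, RPL30, RPL10L and RPL13), against 4.6%, while the median correlation was 0.60 over the 11 and 0.23 over the 1304. RPL10, which joins the large subunit late in its assembly, had 9.91, 8.92, 9.72 and 8.62 with elaidic acid, 9.15, 8.97, 8.68 and 7.32 with oleic acid, 9.90, 9.67, 9.85 and 10.24 with stearic acid, and 7.48, 8.91, 8.60 and 8.87 in control on PH_hs_0034995. On PH_hs_0024608 it had 7.49, 8.64, 8.07 and 8.29 with elaidic acid, 8.65, 8.36, 8.26 and 9.23 with oleic acid, 7.84, 8.002, 7.89 and 7.57 with stearic acid, and 9.28, 8.57, 8.34 and 8.20 in control. In these normalised values the first was lowest and the second highest in the 2 dimmest samples, with a correlation of -0.92, of -0.80 within range A and of -0.78 within range B. Before normalisation PH_hs_0024608 ran only from 213.3 to 425.4 over the 16 samples, against 96.94 to 2188 for PH_hs_0034995. For RPL30 the correlation was -0.84 overall but -0.43 within range A and 0.45 within range B, and for RPL13 -0.70, -0.33 and 0.82. The dim probes of these genes, PH_hs_0011705 and PH_hs_0038066, ran only from 22.29 to 65.07 and from 86.34 to 162.9 before normalisation. The part of normalisation in these opposite directions was not tested. With stearic acid the RPL13 probe PH_hs_0024847 rose by 1.40 ± 0.44 (adjusted p = 0.0277, limma) and PH_hs_0038066 fell by 0.84 ± 0.25 on the log2 scale (adjusted p = 0.0211, limma). Ribosomal protein genes have many near-identical processed pseudogenes, and which transcripts each probe detects was not tested, so a value of 1 probe is uncertain as a measure of its gene.

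**Figure D5:**
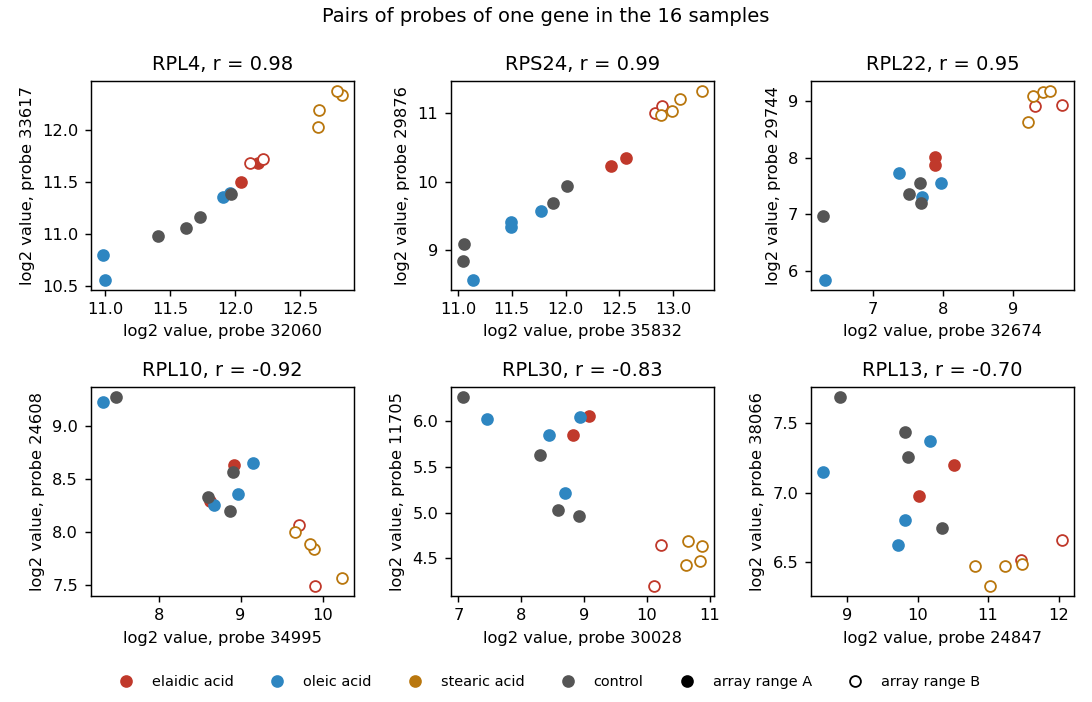
Each panel plots the quantile-normalised log2 values of 2 probes of 1 gene in the 16 samples, coloured by group, with array range B as open markers. The pairs of RPL4, RPS24 and RPL22 (upper row) rise together with correlations of 0.95 to 0.99, and those of RPL10, RPL30 and RPL13 (lower row) run in opposite directions with -0.92 to -0.70.

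Of the 43 probes, 22 were among the 5735 brightest of the 22939 tested probes. Those 22 had a median change with elaidic acid against control of 0.82 and with stearic acid of 1.43, whereas all 5735 had -0.07 and -0.12. The other 21 had 0.47 and 0.68. RPS25, RPL8 and RPS4X were the brightest members, and no member reached the top of the scanner's range, the highest value being 44068 for RPL8. RPS4X, the X-linked small-subunit protein, rose with stearic acid by 0.71 ± 0.23 (adjusted p = 0.0321, limma) and was 0.30 higher with elaidic acid, with overlap. The dimmest tested members, a probe each of RPL10L (PH_hs_0032613), RPL7L1 (PH_hs_0040547) and RPL26 (PH_hs_0030560), had changes with elaidic acid of -0.18, -0.08 and 1.05, none of which passed the test.

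Genes with the TOP motif at an annotated start and those without it can be set side by side within the members. The 23 tested probes of genes with the motif had a median change of 0.88 for elaidic acid against control, 0.48 within range A and 1.40 for stearic acid against control. The 10 tested probes of genes with a start sequence but no motif had 0.38, 0.26 and 0.88. Of these 10 probes, 6 belong to paralogs, against 1 of the 23, so motif and paralogy were not told apart.

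Other gene lists were also higher with stearic acid than in control, among them lists with no part in protein synthesis. With stearic acid against control, the median over 81 probes of mitochondrial ribosomal proteins was 1.14 with 42 rising, that over 28 probes of translation factors 1.21 with 15 rising, that over 33 probes of ribosome biogenesis genes 1.21 with 21 rising, and that over 41 probes of proteasome subunits 1.24 with 29 rising. RNA polymerase I, which makes the precursor of ribosomal RNA, was at 0.30 over 18 probes with 6 rising. Common reference genes were at 1.395 over 5 probes, with 3 rising and 1 falling, and hepatocyte markers at 0.93 over 12 probes, with 6 rising and 1 falling. Of all tested probes 15% rose and 14.8% fell with stearic acid against control, and of those with a symbol 20.6% and 11.2%. For elaidic acid against control within range A, the medians were 0.22 for mitochondrial ribosomal proteins, 0.10 for translation factors, 0.08 for ribosome biogenesis, 0.19 for proteasome subunits, 0.31 for the reference genes and 0.43 for the hepatocyte markers, beside 0.36 for the cytosolic ribosomal proteins. Genes that control TOP mRNAs had 0.21 within range A and 1.18 with stearic acid, where 8 of 12 probes rose. Whether the cytosolic ribosomal proteins differ from these lists was not tested. Between array ranges within elaidic acid the medians were 0.49 for mitochondrial ribosomal proteins, 0.70 for translation factors, 0.88 for ribosome biogenesis, 0.51 for proteasome subunits, 1.42 for the reference genes and 0.42 for the hepatocyte markers, beside 0.59.

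Of the 48 probes, 5 had values at or below 0 in 2 to 7 samples and were left out of the test. They were 1 probe each of RPL4, RPL14, RPL27A, RPL28 and RPL37A. RPL4, RPL27A and RPL37A were represented by other probes, and RPL14 and RPL28 had no tested probe. With all probes kept and values under 1 set to 1, the median over the 48 was 0.58 for elaidic acid against control, with 34 higher.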

How the data were processed

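Total RNA of 16 HepG2 cultures was amplified with aminoallyl-UTP, coupled to Cy5 and hybridised in 1 colour, per the labels' protocols. The deposited table holds 1 linear intensity per probe and sample. The authors subtracted background and applied no scaling, judged from the deposited values, and how the authors combined the 2 technical replicates is not given in the sources used here. Symbols are those of the platform's annotation and can be old. No column belonged to a sample outside the series.

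Probes that reached 0 or less in at least 1 sample (8029, 25.9%) were not tested. The other 22939 were transformed to log2, whose column medians spanned 1.82, and quantile normalised. The 6 contrasts between groups were fitted in limma 3.58.1 (R 4.3.3, lmFit and eBayes, two-sided, all 16 samples), with Benjamini-Hochberg adjustment over all tested probes and a call at an adjusted p under 0.05. Errors of changes are standard errors, and intervals are at 95%. The numbers of arrays limit the precision. Array range as a block leaves the differences within a range. The model was run on simulated data with independent noise and no difference between array ranges, so that run does not cover the array ranges. Figures were drawn with matplotlib 3.10.9 (Python 3.11.15).

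Named members were, in each contrast, up to 6 called probes of smallest p in each direction (3 as values where under 3 were called), a fixed list of 27 symbols of which 11 had a probe, the 3 brightest and 3 dimmest, the 3 of largest range difference in each direction, and the 3 genes whose probes differed most. Other members were named for counts or likeness after their values were seen. The members and the gene lists were chosen with earlier results of these data known. Promoter sequences and current symbols came from RefSeq tables of GRCh38.p14, in which 32 of the 33 symbols matched directly and 1 as an older name. Alternatives covered the normalisation, dim probes, variance settings, blocks for array range and replicate number, subsets of samples and leaving out each sample. Leaving out the 2 dimmest samples, with or without the array range block, was chosen after seeing the data.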

Additional observations from a re-analysis of the deposited data

Results flagged for a closer look

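In 144 sets of 4 replicate values, 13 had 1 sample far from the other 3 (a gap above Dixon's critical share of the range), and chance flags about 1 set in 20. The sets are not independent, since they share the 16 samples. Some are probes of the same gene, and the subunit medians are taken over probes that also form sets. Oleic acid replicate 4, 1 of the 2 dimmest samples, gave 5 of the 13 flagged sets, all low. Its small-subunit median was -1.039 against -0.32 to -0.252 in the other oleic acid samples, and its log2 values were 4.941 for RPS14, 11.217 for RPS25, 6.389 for RPL7L1 PH_hs_0017808 and 5.089 for RPL7L1 PH_hs_0039021. Oleic acid replicate 1 was low for RPL34 at 4.142. Among elaidic acid samples, replicate 3 was low for RPS26L1 at 4.882 and replicate 4 for RPL7L1 PH_hs_0040547 at 1.294. With stearic acid, replicate 4 was low for RPL13 PH_hs_0038066 at 6.328, replicate 2 low for RPS14 at 8.442 and replicate 1 high for RPL7L1 PH_hs_0039021 at 8.742. In control, replicate 4 was high for RPL22L1 at 8.298 and replicate 1, the other dimmest sample, low for RPL39L at 4.977. The part of sample brightness in these values was not tested.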

How the results depend on the processing

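Of 433 list values under alternatives, 357 kept their direction and side of the threshold or size, and of 2883 values of single members, 2626 did. Members called for elaidic acid against control numbered 0 in the main analysis, 1 with median centring, 4 with 50 added, 3 without the dimmest 50% of probes, 3 with an intensity trend and 22 with array weights, which also called 2632 probes higher and 2024 lower over the array, and their median within range A without the 2 dimmest samples was 0.246. Over the array, median centring called 57 probes higher and 6 lower, and 50 added 186 and 32. Without the dimmest 50% the calls were 163 and 26, and with the trend 135 and 19. Tested probes numbered 22939, except 30968 with 50 added and 11469 without the dimmest 50%. Against oleic acid the counts were 1 with median centring, 3 with 50 added, 3 without the dimmest 50%, 2 with a trend and 30 with array weights, and the median was 1.067 without normalisation, 0.4 within range A and 0.203 there without the 2 dimmest samples. In the order of those counts, calls over the array, higher and lower, were 53 and 2, 177 and 39, 150 and 30, 117 and 9, and 4300 and 4653. Against stearic acid the 1 call was lost (0) without normalisation, with values under 1 set to 1, in all blocked fits and with the groups fitted alone, and it became 3 with 50 added and 2 with array weights. Over the array 50 added called 147 probes higher and 435 lower, and array weights 371 and 659. The members' median against stearic acid was -0.977 without normalisation, -0.129 with the range block and -0.228 with replicate and range blocks. For stearic acid against control the median was 1.855 without normalisation, 0.558 with the range block, 0.724 with both blocks and 0.429 with the range block without the 2 dimmest samples, with 0 called in all 3. For oleic acid against stearic acid it was -2.119, -0.604, -0.592 and -0.386, with 0 called in the blocked fits. Between array ranges the 2 calls became 0 without normalisation, with values under 1 set to 1, with 1 probe per gene and with the replicate block, 7 with 50 added, 5 with a trend, 19 with array weights and 17 without the 2 dimmest samples, and the median was 1.349 without normalisation. Over the array 50 added called 1479 probes higher and 983 lower, and the trend 827 and 707. Array weights called 3479 and 3944, and leaving out the 2 dimmest samples 2681 and 2211. Changes with stearic acid against control that reversed under the range block, both blocks, and the range block without the dimmest samples were RPL37 PH_hs_0033839 (-0.831, -0.949, -1.129), RPL7L1 PH_hs_0017808 (-0.178, -0.357, -0.501) and RPL13 PH_hs_0024847 (-0.09, -0.051, -0.369). The cause was not tested. Leaving out each sample gave 0 to 1 calls for elaidic acid against oleic and against stearic acid, and 0 to 9 between ranges, the most without oleic acid replicate 4. Without that sample 1012 probes were called higher and 682 lower between ranges over the array.

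Replicate numbers were not taken to pair the samples, since in no comparison did the deviations of all 4 same-numbered pairs correlate above 0.1. The correlations ran from -0.462 to -0.11 for elaidic acid against control and from -0.191 to 0.364, with 3 of 4 above 0.1, for elaidic acid against oleic acid, and those of the other comparisons lay between -0.385 and 0.181. With the replicate block 0 members were called for elaidic acid against control, and the median stayed at 0.618, and 0 were called for elaidic acid against oleic acid, with a median of 0.745. Signals near background limit dim members, and the 2 arrays behind each value cannot be separated.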
